A study of Drosophila melanogaster with 3 samples.

Results

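The translation initiation factor genes of Drosophila melanogaster were examined in chromatin immunoprecipitation with sequencing (ChIP-seq) of GFP-tagged net in whole prepupae. They were chosen by name, as the genes whose Ensembl symbol starts with eIF and a digit, which gave 44 of 13968 protein-coding genes. The strain, net-GFP, is a transgenic line that stably makes net joined at its C-terminus to green fluorescent protein (GFP), and the precipitating antibody was against GFP. The prepupae were males and females together, their age within the stage is given as unknown, and 3 biological replicates numbered 1, 3 and 4 form the only group. The tagged protein net is a basic helix-loop-helix (bHLH) transcription factor known from wing vein patterning. No library from flies without the tagged protein was analysed here, so signal that any GFP precipitation may give was not tested, and whole animals do not show in which cells a peak arose.

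Translation initiation places the ribosome at a start codon. The GTP-binding eIF2 complex carries the initiator tRNA to the small ribosomal subunit, eIF2B recharges eIF2 with GTP, eIF3 is a large scaffold on the small subunit, and the eIF4 group recognises the mRNA cap and unwinds the leader. Binding of the large subunit is then promoted by eIF5B, whereas eIF6 keeps free large subunits apart from small ones. These genes are known as broadly expressed growth genes, and several have a paralog known to be enriched in the testis.

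The share of these genes with a net-GFP peak was somewhat above that of all protein-coding genes, by less than the counting error of 44 genes. A summit of the IDR-thresholded peak list, which holds peaks meant to rank alike across replicates, lay within 500 bp of a transcription start site (TSS) of 10 of the 44 genes (22.7%, 95% exact interval 11.5 to 37.8), against 18.2% of all protein-coding genes. Protein-coding genes of like span, taken by decile of gene length, had a share of 18.1%, which would give 7.98 genes of 44. With the window widened to the whole gene and 2 kb on both sides, 18 of 44 genes had a summit (40.9%, 26.3 to 56.8), against 34.4% of all protein-coding genes and 34.1% at like span. The intervals cover counting error only and hold both background shares. In the relaxed pooled list of 30000 peaks the order turned, with 12 genes (27.3%) carrying a summit at a TSS against 33.6% of protein-coding genes, and 21 (47.7%) in the wider window against 54.4%.

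The 10 genes with a summit at a TSS were eIF1, eIF2D, eIF2beta, eIF3h, eIF4A, eIF4EHP, eIF4G2, eIF4H1, eIF5B and eIF6. A further 8 had a summit only in the wider window, and these were eIF1A, eIF2A, eIF2alpha, eIF2Bbeta, eIF2Bgamma, eIF2Bdelta, eIF3g1 and eIF4E1. The other 26 had none. The farthest gene inside the 500 bp limit, by its strongest TSS summit, was eIF3h at 281 bp, and the nearest outside were eIF2Bbeta at 684 bp and eIF2Bdelta at 708 bp.

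The sequences under 7 of these summits are shown as examples of strong and more ordinary peaks and of genes that share a peak with a neighbour. Not every counted summit is shown, and the strongest at a TSS, that of eIF6, is not among them. The 7 therefore do not give the share of E-boxes in the group. Each runs 5′ to 3′ on the strand of the named gene, reaches at most 50 bp to either side of the summit, leaves out annotated untranslated bases, and has E-boxes, the CANNTG words that bHLH proteins recognise, in capitals. On build dm6 (sequence from RefSeq) the windows are, for eIF4EHP, chr3R:24109136-24109236 (minus strand), for eIF3h chr2L:5052449-5052549 (minus), for eIF2D chr3R:29151876-29151976 (minus), for eIF2beta chr3L:12526952-12527052 (minus), for eIF1 chr3L:3223257-3223340 (plus), for eIF4H1 chrX:16448904-16449004 (plus) and for eIF2Bbeta chrX:2703853-2703937 (plus). The windows of eIF2beta, eIF1, eIF4H1 and eIF2Bbeta each hold 1 E-box and those of eIF4EHP, eIF3h and eIF2D hold 0.
eIF4EHP: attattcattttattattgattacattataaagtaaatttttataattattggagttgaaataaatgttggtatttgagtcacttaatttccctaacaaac
eIF3h: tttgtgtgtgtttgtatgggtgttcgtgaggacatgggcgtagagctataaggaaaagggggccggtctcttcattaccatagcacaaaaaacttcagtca
eIF2D: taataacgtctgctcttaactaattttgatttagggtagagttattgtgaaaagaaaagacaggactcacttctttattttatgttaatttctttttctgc
eIF2beta: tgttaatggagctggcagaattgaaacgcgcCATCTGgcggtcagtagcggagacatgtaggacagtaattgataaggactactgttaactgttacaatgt
eIF1: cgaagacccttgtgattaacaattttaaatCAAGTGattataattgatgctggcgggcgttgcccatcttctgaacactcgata
eIF4H1: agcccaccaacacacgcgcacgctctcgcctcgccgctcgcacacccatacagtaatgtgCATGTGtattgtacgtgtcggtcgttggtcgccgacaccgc
eIF2Bbeta: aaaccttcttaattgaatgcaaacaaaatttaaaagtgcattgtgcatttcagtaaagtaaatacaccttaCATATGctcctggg

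Among the 5 genes for start codon recognition and its GTPase control, eIF6, eIF5B and eIF1 had a summit at a TSS, against 18.2% of all protein-coding genes. Neither this group nor the other small groups below were tested against that share. At eIF6 (FBgn0034915, 2R from 23849246 to 23850301, minus strand) the summit lay 98 bp upstream with a pooled signal of 1700, rank 46 of 7571. Signal is the authors' own value per peak and ranks peaks within a list only. The peak ranked 60, 33 and 60 in the lists of replicates 1, 3 and 4, a mean of 51 ± 15.6 (SD, n = 3), so it was among the strongest peaks of every library. The antisense RNA gene asRNA:CR45928 had the closest TSS, at 69 bp, and the summit lay in a non-coding exon of that gene and in an intron of ytr. The summit therefore lies within overlapping genes other than eIF6 and is counted for eIF6 by distance alone.

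At eIF5B (FBgn0026259, 3L from 3428658 to 3460977, minus strand), which encodes the GTPase that joins the subunits, the strongest summit had signal 424. It lay 132 bp upstream of a TSS, in the 5′ UTR of a longer eIF5B transcript, and ranked 1983, 1164 and 1672 in replicates 1, 3 and 4. The gene spans 32320 bp, and 7 more summits lay in its introns with signals from 135 to 299. Of these intronic peaks the one of signal 299 ranked alike in the libraries, at 2692, 2564 and 3011, and the one of signal 151 did not, at 28388, 5709 and 12296. Those of signal 181, 167 and 135 had no match in replicate 1, and that of 181 had none in replicate 3 either. The remaining intronic peaks were matched in every library. For 5 of the 7, the nearest TSS was that of sty, an inhibitor of receptor tyrosine kinase signalling, at 7935 to 16897 bp.

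The gene eIF1 (FBgn0035423, 3L from 3223341 to 3224650, plus strand) encodes a small factor that guards the fidelity of start codon choice. Its summit of signal 214 lay 34 bp upstream of the TSS and 347 bp upstream of the ribosomal protein gene RpL28, which runs in the opposite direction. The library ranks were 2282, 7078 and 7703 in replicates 1, 3 and 4, and replicate 4 thus placed it outside its own 7571 strongest peaks. A second peak, of signal 202, lay 2961 bp downstream, in the 5′ UTR of Larp4B. The partner factor gene eIF1A had its only summit in an intron, 857 bp downstream of the TSS, with signal 192. No IDR summit lay within 98416 bp of a TSS of eIF5, which encodes the GTPase-activating factor for eIF2.

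Of the 3 eIF2 subunit genes, eIF2beta alone had a summit at a TSS, against 18.2% of all protein-coding genes. This summit lay 271 bp upstream of eIF2beta (FBgn0004926, 3L from 12525093 to 12526731, minus strand) with signal 272 and library ranks of 2780, 2023 and 6515. A stronger peak of signal 966 lay beyond the other end of the gene, in an intron of ver, which encodes a telomere protein, and the histone acetyltransferase gene Gcn5 also had a TSS within 500 bp of it. The gene eIF2alpha, whose product is phosphorylated in the integrated stress response, was counted through a summit 1961 bp upstream of its TSS. That summit lies in an intron of the neighbour eIF4H1 and is counted for both genes. For eIF2gamma, which shares its start region with Su(var)3-9, the nearest IDR summit was 11938 bp away.

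Of the 5 eIF2B subunit genes 0 had a summit that close to a start, against 18.2% of all protein-coding genes. In the wider window 3 of them had one, against 34.4%. The peak counted for eIF2Bbeta is the strongest of the whole IDR list, with signal 3742, and it lay 684 bp upstream of eIF2Bbeta but 35 bp from a TSS of Ugalt, a nucleotide-sugar transporter gene. It ranked 2, 1 and 1 in replicates 1, 3 and 4. At eIF2Bgamma the counted peak of signal 263 lay 16 bp from a TSS of CG8187, and at eIF2Bdelta a weak peak of signal 158 lay 345 bp from one of CG30414. The other pair, eIF2Balpha and eIF2Bepsilon, had their nearest IDR summits 41818 bp and 13910 bp from a TSS.

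Both genes of factors known to deliver initiator tRNA by alternative routes had a summit in the wider window, against 34.4% of all protein-coding genes. At eIF2D (FBgn0041588, 3R from 29149896 to 29151794, minus strand) the summit lay in intergenic sequence 132 bp upstream of the TSS, with no other gene's TSS within 500 bp. Its signal was 284, and its library ranks of 3643, 2717 and 3096 had a mean of 3152 ± 466 (SD, n = 3), the smallest relative spread among the 10 TSS-counted genes. For eIF2A the summit counted, of signal 202, lay 132 bp from a TSS of the neighbour CG32448, and a summit 39 bp upstream of eIF2A itself had signal 133 in the relaxed list, at rank 7700, just below the IDR limit.

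Of the 16 genes of the scaffold complex eIF3, 1 had a summit at a TSS, against 18.2% of all protein-coding genes, and 2 had one in the wider window, against 34.4%. The scaffold subunit genes eIF3a, eIF3b and eIF3c, together with eIF3d1, eIF3d2, eIF3e, eIF3f1, eIF3f2, eIF3g2, eIF3i, eIF3j, eIF3k, eIF3l and eIF3m, had none. The exception was eIF3h (FBgn0022023, 2L from 5051193 to 5053094, minus strand), with 1 intronic summit of signal 595, 281 bp past a TSS, and another of signal 230 in the 5′ UTR, 26 bp downstream. The stronger one ranked 713, 607 and 1238 in replicates 1, 3 and 4 (mean 853 ± 338, SD, n = 3), and the weaker one 3968, 3964 and 7276. The gene senju starts in the opposite direction, and its TSS was 344 bp from the stronger and 89 bp from the weaker summit. For eIF3g1 the counted peak of signal 491 lay 1369 bp downstream of the TSS, beyond the gene, and 91 bp from a TSS of Smyd3. Neither difference from the background share was tested.

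Of the 7 genes of the eIF4E family, whose proteins bind the mRNA cap, 1 had a summit at a TSS, against 18.2% of all protein-coding genes. In the wider window 2 had one, against 34.4%. The strong peak was counted for a repressor gene and not for the main cap-binding gene, but a TSS of CG18428 was nearer to it. The gene eIF4EHP (FBgn0053100, 3R from 24063077 to 24108960, minus strand) encodes a cap-binding protein that does not bind eIF4G and blocks translation of bound mRNAs. Its summit, 226 bp upstream of the TSS, had signal 1364, rank 84 of 7571, and ranked 94, 125 and 49 in replicates 1, 3 and 4 (mean 89.3 ± 38.2, SD, n = 3). The divergent gene CG18428 starts 150 bp from the same summit. A further 3 summits lay in introns of eIF4EHP, with signals of 315, 307 and 157. For the summits of signal 315 and 307 the nearest TSS was that of Syx1A, at 665 bp and 6583 bp. For that of signal 157 it was that of SMC1, at 20998 bp. At eIF4E1, the main cap-binding gene, the only summit counted had signal 141, lay 3213 bp downstream of the nearest TSS in the 5′ UTR of CG4080, and had no match in replicate 3. The paralogs eIF4E3, eIF4E4, eIF4E5, eIF4E6 and eIF4E7 had none, with the nearest IDR summit between 7095 bp and 42338 bp from a TSS.

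Of the 6 genes for the other eIF4 proteins, 3 had a summit at a TSS, against 18.2% of all protein-coding genes. The RNA helicase gene eIF4A (FBgn0001942, 2L from 5981764 to 5985909, plus strand) had a summit of signal 182 in its 5′ UTR, 43 bp upstream of an internal TSS. Its library ranks were 8304, 2472 and 11839, and replicate 3 alone placed it among its 7571 strongest peaks. A second peak, of signal 244, lay 1673 bp upstream, 10 bp from a TSS of the profilin gene chic. At eIF4H1 (FBgn0262734, X from 16448665 to 16454972, plus strand), which encodes a helicase cofactor, a summit of signal 269 lay in an intron 198 bp upstream of an internal TSS, with library ranks of 1400, 5587 and 3548. At eIF4G2 (FBgn0260634, 3R from 23808285 to 23819237, minus strand), a scaffold paralog known from spermatogenesis, summits of signal 231 and 156 lay 140 bp upstream of one TSS and 79 bp downstream of another, both shared with CG33111. The stronger ranked 3328, 6018 and 3965, and the weaker 14288, 16302 and 5485. The paralogs eIF4G1 and eIF4H2 and the cofactor gene eIF4B had none. The gene eIF4G1 lies on chromosome 4, which held 10 IDR peaks in all, and the nearest IDR summit to eIF4B was 4762808 bp away along 3L.

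**Figure D1:**
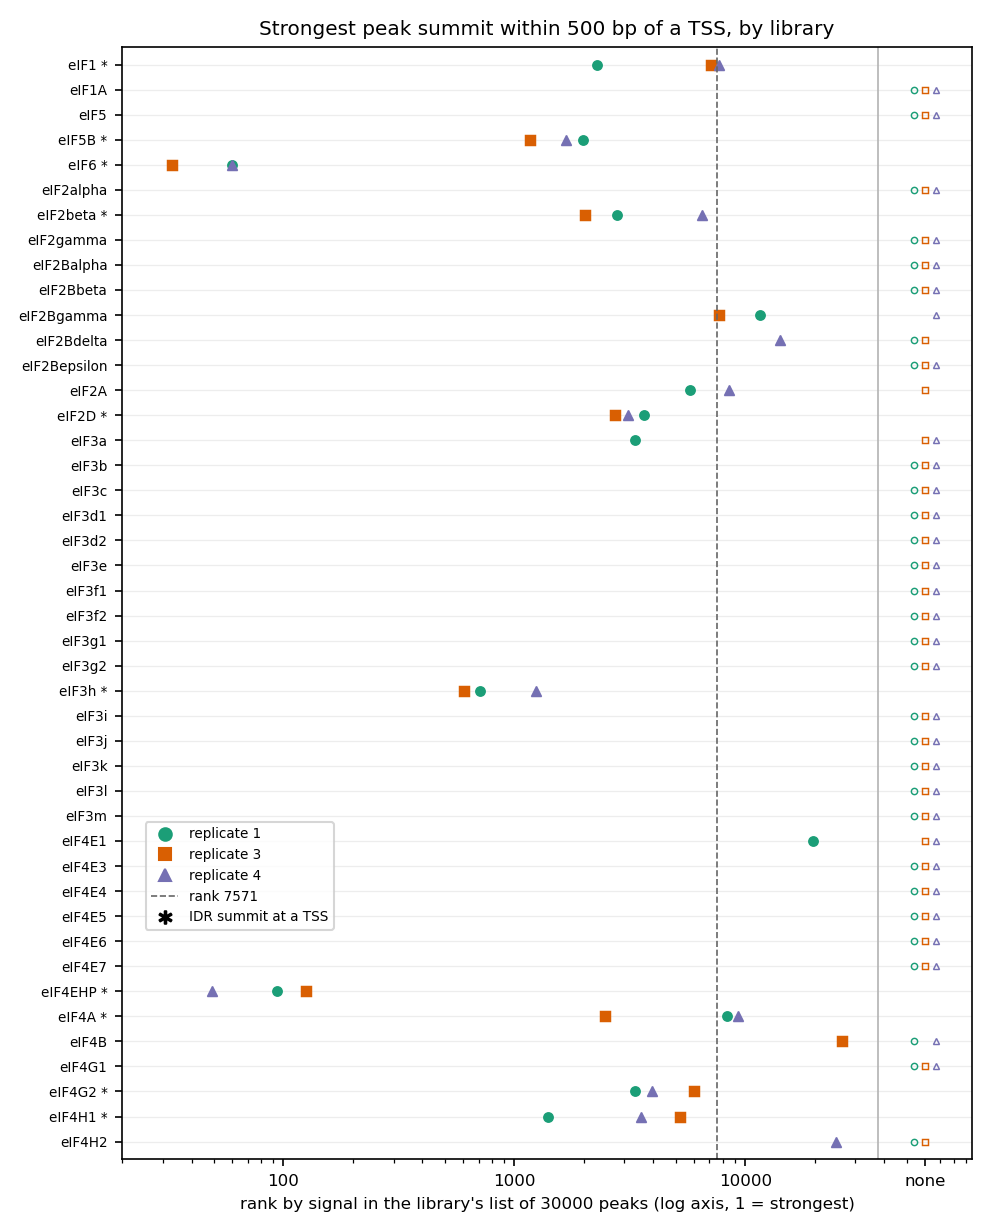
Rank of the strongest peak summit within 500 bp of a TSS of each of the 44 genes in the lists of replicates 1, 3 and 4 (log axis, 1 is the strongest of 30000 peaks), with an open symbol at "none" where a library has no such summit. The points of eIF6 and eIF4EHP sit at ranks 33 to 125, 27 genes have no summit in any library, and stars mark the 10 genes with an IDR summit at a TSS.

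Each library was also read on its own, without the pooled list. The plot of library ranks takes any summit within the 500 bp, so it shows 9303 for eIF4A in replicate 4 and 5206 for eIF4H1 in replicate 3, where the summit matched to the IDR summit within 100 bp ranked 11839 and 5587. Among its 7571 strongest peaks, replicate 1 had a summit at a TSS of 11 of the 44 genes (25%, against 19.9% of protein-coding genes), replicate 3 of 10 (22.7%, against 20.7%) and replicate 4 of 8 (18.2%, against 17.2%). The mean was 22% ± 3.47 of these genes and 19.3% ± 1.85 of protein-coding genes (SD, n = 3 libraries). Within a library the initiation factor share was higher by 5.06, 1.99 and 0.971 percentage points in replicates 1, 3 and 4, a mean difference of 2.67 ± 2.13 (SD, n = 3). The direction was the same in the 3 libraries, which share 1 gene list, and no test of it was made. The 8 genes counted in all 3 libraries were eIF2D, eIF2beta, eIF3h, eIF4EHP, eIF4G2, eIF4H1, eIF5B and eIF6. A further 1 gene, eIF1, was counted in 2 libraries, and eIF2A, eIF3a and eIF4A in 1 library each. The shares of protein-coding genes counted in 3, 2 or 1 libraries were not computed. By a related count, IDR peaks matched in all libraries gave 8 initiation factor genes (18.2%) at a TSS, against 11.8% of protein-coding genes. Among all 30000 relaxed peaks, 17 of the 44 genes (38.6%) had a summit at a TSS in at least 1 library, against 46.1% of protein-coding genes, and 27 had none in any library.

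**Figure D2:**
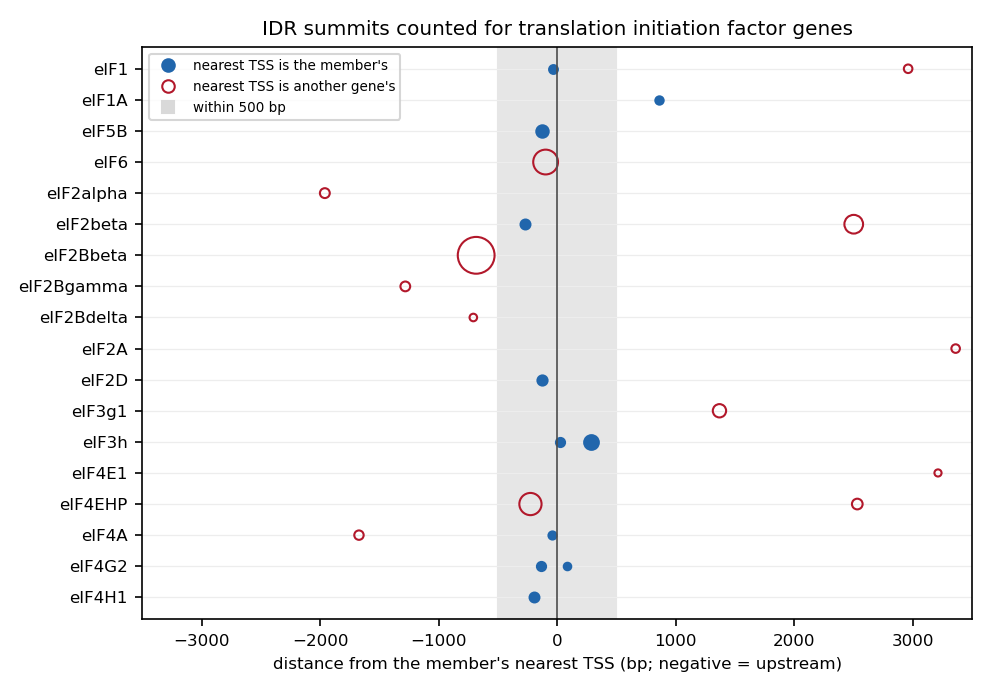
Distance in bp from the nearest TSS of the named gene to each IDR summit counted for it within 3500 bp, for the 18 genes with a summit in the wider window, with symbol area proportional to the pooled signal. Filled symbols have a TSS of that gene as the nearest one, open symbols that of another gene, and the largest symbols, at eIF2Bbeta, eIF6 and eIF4EHP, are all open.

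Many of the counted summits lay nearer to another gene. The wider window held 32 distinct summits, and for 13 of them the nearest TSS was that of an initiation factor gene. At TSSs, the strongest summits of eIF6 and eIF4EHP were nearest another gene's start, and those of the other 8 genes were nearest their own, which eIF4G2 shares with CG33111. Counting a gene only through summits nearest to its own TSS, a rule chosen after seeing the data, gave 8 initiation factor genes at the TSS (18.2%, against 14.9% of protein-coding genes) and 9 in the wider window (20.5%, against 20.5%). The wider count thus became smaller both for initiation factor genes and for protein-coding genes as a whole. Initiation factor genes had another coding gene's TSS within 500 bp in 19 of 44 cases (43.2%), against 30.8% of protein-coding genes. With such a neighbour 6 of 19 genes (31.6%) had a summit at a TSS, against 25.8% of protein-coding genes with one, and without it 4 of 25 (16.0%), against 14.8%. Gene pairs with close starts were thus counted more often both among initiation factor genes and among protein-coding genes as a whole, a difference that was not tested.

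The 12 summits at TSSs of these genes had signals of 156 to 1700 with a median of 270, while the 2528 summits at TSSs of all protein-coding genes ranged from 134 to 3742 with a median of 243. Matching summits within 100 bp of each other, 9 of the 12 (75.0%) were found among the 7571 strongest peaks of all 3 libraries, against 57.2% of the summits of all protein-coding genes. The 3 that were not belong to eIF1, eIF4A and eIF4G2, where it is the weaker of 2 summits. The median distance to the TSS was 132 bp against 156 bp, and 9 of 12 (75.0%) lay upstream against 74.7%. For the 12, distance and side refer to the initiation factor gene. Of the 12 summits, 6 (50%) had several coding genes within 500 bp, against 22.2% of summits in the whole set. For such summits of the whole set, distance and side refer to 1 of these genes, not always the nearest. These values were set side by side and not tested, since 12 summits at 10 genes are few and some share a promoter.

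**Figure D3:**
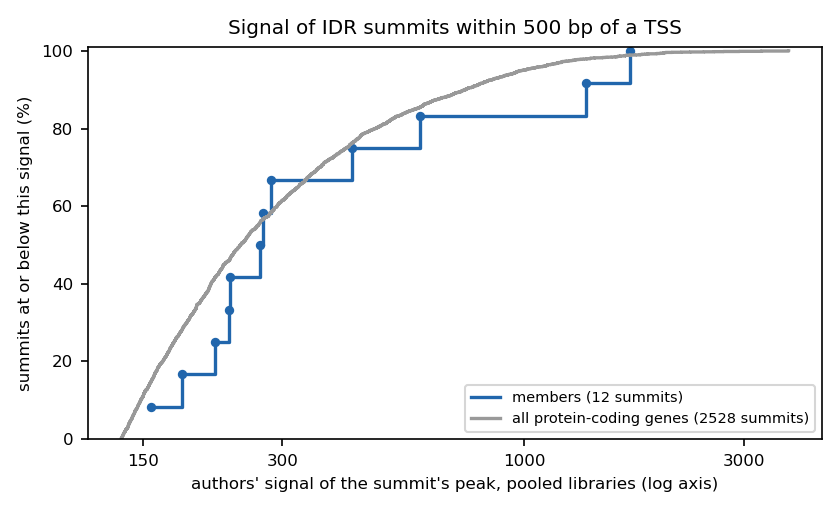
Share of summits (%) at or below each pooled signal (log axis) for the 12 IDR summits within 500 bp of a TSS of initiation factor genes and the 2528 at TSSs of all protein-coding genes. At the lowest signals the line of the initiation factor genes lies below the other, and the medians are 270 and 243. Beyond the signal of eIF3h (595) these genes have the 2 points of eIF4EHP (1364) and eIF6 (1700).

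Of the 5 paralog pairs set side by side, 2 differed at the TSS. The pair eIF4G2 and eIF4G1 had 2 summits and 0 summits at a TSS, the pair eIF4H1 and eIF4H2 had 1 and 0, and of the pair eIF3g1 and eIF3g2 the first had a summit in the wider window alone, nearest to Smyd3, and the second none. Neither eIF3d1 nor eIF3d2, and neither eIF3f1 nor eIF3f2, had a summit in either window. In these counts a gene without an IDR summit may still have had signal below the limit of the list.

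E-boxes were no more frequent at these summits than at those of other genes. Within 50 bp of the summit, 4 of the 12 TSS summits (33.3%) held CANNTG, against 36.4% of the 2528 summits at TSSs of protein-coding genes, and 37.5% of windows of the same length centred 250 bp to either side of the 12. CANNTG reads the same on both strands, so a single search covers both. The E-box cores CACGTG, to which Myc binds, and CATATG were in 0 of the 12 windows, against 1.07% and 2.81% of the 2528. Summits of eIF2Bbeta and eIF3g1, counted in the wider window, each had a CATATG. Base composition ranged widely, from 19.8% G and C at eIF4EHP to 61.4% at eIF4A and eIF4H1, with a mean of 44.2% ± 12.1 (SD across 12 windows), against 39.6% ± 11.2 across the 2528.

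In promoters, taken from 250 bases before to 50 after each gene start, the word TATCGATA had the widest gap in share of the 5 words searched, a gap that was not tested. It is the core of the DNA replication-related element, bound by the factor Dref and known from promoters of growth genes, and it also reads the same on both strands. It was in 12 of 44 initiation factor promoters (27.3%), against 30.4% of ribosomal protein promoters and 9.36% of all protein-coding promoters. The 12 genes were eIF1A, eIF2alpha, eIF2gamma, eIF2Bbeta, eIF3a, eIF3c, eIF3f1, eIF3l, eIF4A, eIF4B, eIF4E6 and eIF6. It was in the promoters of 2 of the 10 genes with a TSS summit (20%) and of 10 of the other 34 (29.4%). The promoter was taken at the outermost start of each gene. In contrast, the strongest TSS summits of eIF3h, eIF4A, eIF4G2, eIF4H1 and eIF5B lay nearest to an internal TSS of their gene. For these genes the promoter searched was not that of the TSS nearest the summit. CANNTG was in 36 promoters (81.8%, against 77.3%), CACGTG in 3 (6.82%, against 4.23%) and CATATG in 4 (9.09%, against 7.83%), where these cores are themselves CANNTG words. The word CTTT starting within 5 bases of the gene start on the coding strand, the core of the TCT initiator known from ribosomal protein genes, was in 3 (6.82%) initiation factor promoters, those of eIF3f1, eIF3i and eIF4A, against 33.7% of ribosomal protein promoters and 5.63% of all. A word in these windows is a description of sequence and does not show a bound site.

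**Figure D4:**
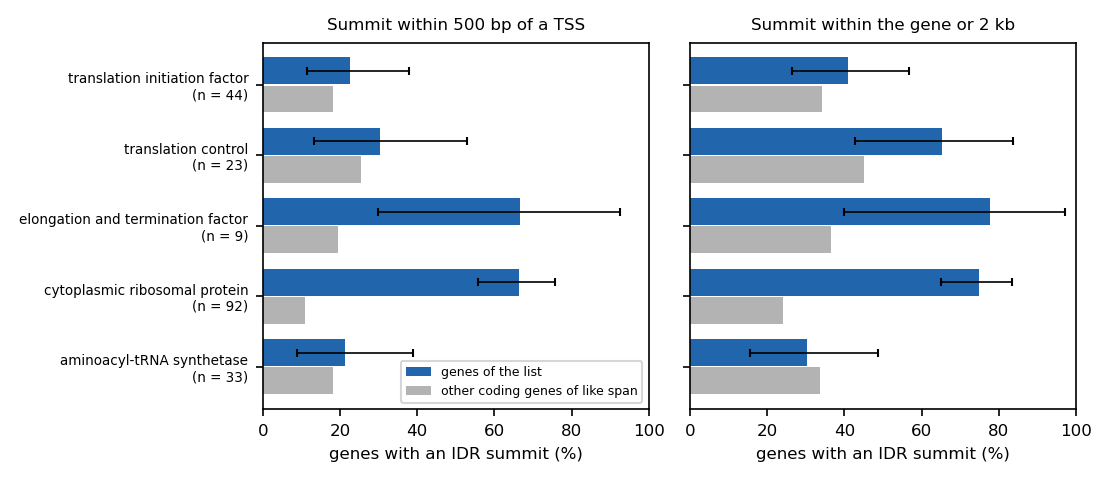
Share of genes (%) with an IDR summit within 500 bp of a TSS (left) and within the gene or 2 kb (right) for initiation factor genes and 4 other lists of the translation machinery (dark bars, with 95% exact intervals), above the share of other protein-coding genes of like span (grey bars). Initiation factor genes stand at 22.7% against 18.1% on the left, and ribosomal protein genes at 66.3% against 10.9%.

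Other genes of the translation machinery were counted by the same windows. Of 9 elongation and termination factor genes, 6 had a summit at a TSS (66.7%, 29.9 to 92.5, against 19.4% at like span). These were eEF1gamma (signal 749), eEF1alpha1 (461), eEF2 (369), eEF5 (255), eRF1 (237) and eRF3 (222), and their strongest TSS summits lay between 56 bp upstream and 11 bp downstream of the start. Of 92 cytoplasmic ribosomal protein genes 61 had one (66.3%, 55.7 to 75.8, against 10.9%), and of 33 aminoacyl-tRNA synthetase genes 7 (21.2%, 8.98 to 38.9, against 18.3%). The initiation factor interval of 11.5 to 37.8% lies below that of the ribosomal protein genes and overlaps the other intervals, and no test of the differences between lists was made.

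Genes that regulate initiation were taken from a list of 23, of which 7 had a summit at a TSS (30.4%, 13.2 to 52.9, against 25.5% at like span) and 15 in the wider window (65.2%, 42.7 to 83.6, against 45.1%). The strongest was at larp, which encodes an RNA-binding protein of growth-regulated mRNAs, with signal 2928, 323 bp upstream of a TSS, and ranks of 5, 10 and 5 in replicates 1, 3 and 4. The poly(A)-binding protein gene pAbp had signal 723 at 473 bp downstream and ranks of 666, 361 and 586, and Unr had signal 658. The kinase gene Lk6, whose product phosphorylates eIF4E, had a TSS summit of signal 316 and a stronger peak of signal 2274 that lay 978 bp upstream. Thor, the eIF4E-binding repressor 4E-BP, had a summit of signal 210, 39 bp downstream of its TSS, with ranks of 3897, 3286 and 28176, so replicate 4 placed it near the end of its list. The transcription factor gene crc had signal 256 and pix, a ribosome recycling factor gene, signal 148, nearest to Srp68 and with no match in replicate 4. The eIF2 kinase genes Gcn2 and PEK, the growth kinase gene mTor and its activator Rheb, and 4E-T, DENR, MCTS1 and me31B had no summit in either window. The remaining 8, cup, bel, NAT1, Paip2, PPP1R15, S6k, raptor and Myc, had one in the wider window alone. The strongest such summit was nearest to Galt at cup, to Sox14 at PPP1R15 and to Nep1 at raptor. At the other genes it was nearest to a TSS of the gene itself, which Myc shares with lncRNA:CR44999.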

How the data were processed

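ChIP-seq peak lists of 3 replicate libraries of net-GFP prepupae were used, on genome build dm6. Per the deposited file descriptions, the authors called relaxed peaks against a control alignment in each library and in the pooled alignments, each list holding 30000 peaks, and derived an IDR-thresholded list of 7571 peaks. Aligner, caller and versions: not given in the sources used here. The signal per peak was used as deposited by the authors, to rank peaks within a list. The files give no read counts, so depth is unknown and list length says nothing of it. The dm3 lists were not used here.

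Summits were the peak start plus the deposited offset, given 1-based. Genes came from the Ensembl annotation of BDGP6 (17947 genes on the chromosome arms, without transposable elements and pseudogenes) and sequence from RefSeq, Release 6. A summit was matched to a library's strongest summit within 100 bp. The like-span share is that of other protein-coding genes in each decile of gene span, weighted by the number of listed genes in the decile. Intervals are exact (Clopper-Pearson) and treat genes as independent. The gene list, the other lists and the windows were chosen with earlier results of these data known. All 44 genes are named in the text, and library ranks are given for those with a TSS summit. Tor was looked up under its current symbol, mTor. No test was made, since there is 1 group. Alternatives were other distances, stricter and looser lists, matched peaks, whole-peak overlap and IDR peaks matched in all libraries but 1 in turn. The assignment of summits to genes was tested on simulated data. Python 3.11.15, numpy 2.4.6, scipy 1.17.1 and matplotlib 3.10.9 were used.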

Additional observations from a re-analysis of the deposited data

How the results depend on the processing

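The count of 10 genes with a summit at a TSS stayed between 8 and 13 under every alternative tried, but the share at like span moved with it in most. With a limit of 200 bp it was 12.8% (8 genes, 18.2%), with 1000 bp 21.7% (13 genes, 29.5%), with peaks above the median signal 11.4% (8 genes), with peaks matched in all libraries 11.9% (8 genes), and in the relaxed pooled list 33% (12 genes, 27.3%). Keeping the IDR peaks matched in both other libraries, with each library set aside in turn, gave 12.7% to 14.2%, with 8 to 9 genes. This is what "without" a library means here, and the IDR list itself still drew on all libraries. The genes lost were eIF1 and eIF4A in peaks above the median signal, in peaks matched in all libraries and without replicate 1 or 3, eIF4A without replicate 4, and eIF2beta and eIF4EHP at 200 bp. In the wider window the like-span share was 23.9% with peaks above the median signal (13 genes), 53.4% in the relaxed list (21 genes), 25.3% with matched peaks (13 genes), 26.9% to 28.2% without each library (14 to 15 genes), 28% with a flank of 1 kb (15 genes) and 13.4% inside genes alone, where the count fell to 7 genes (15.9%). It was 10 genes with summits nearest to a TSS of any of these genes, and 9 with summits nearest to the gene's own TSS, an alternative chosen after seeing the data. The initiation factor share was above the like-span share wherever both were computed except in the relaxed pooled list, where it was below. The other 43 of 62 alternative values, among them every value of the median signal, of the library matches and of the E-box share, stayed within 1.5 times the count or within the spread or interval. Why the values moved was not tested beyond the alternatives' own construction, in which stricter lists and shorter windows count fewer genes. No paired analysis was possible because the libraries form 1 group. The unknown depth limits what a missing peak can show.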

Other observations

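Library peaks appeared at TSSs of 7 genes with no IDR summit there. The like share among protein-coding genes without an IDR summit was not computed. With or without an IDR summit, 38.6% of initiation factor genes had a library peak at a TSS, below the 46.1% of protein-coding genes. In replicate 1 alone, eIF3a carried a summit at its TSS at rank 3341 of 30000, with none in replicates 3 and 4. That rank lies within the 7571 strongest peaks of the library, as does the rank of eIF2A in replicate 1. At eIF2Bgamma, which lacks an IDR summit at its TSS, summits ranked 11587 in replicate 1 and 7703 in replicate 3, with none in replicate 4, and at eIF2A they ranked 5766 in replicate 1 and 8482 in replicate 4, with none in replicate 3. Single summits further down the lists were found at eIF2Bdelta (rank 14129, replicate 4), eIF4E1 (19587, replicate 1), eIF4B (26181, replicate 3) and eIF4H2 (24717, replicate 4).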
